A study of Mus musculus with 4 samples.

Results

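Cytochrome c oxidase, complex IV of the respiratory chain, passes electrons from cytochrome c to oxygen and pumps protons across the inner mitochondrial membrane. Its catalytic core is made by 3 genes of the mitochondrial genome, and nuclear genes make the smaller subunits that surround this core and are imported from the cytosol. Neurons depend heavily on the complex, and its activity is a classical marker of energy use in brain tissue. The 10 nuclear genes described here, Cox4i1, Cox5a, Cox5b, Cox6a1, Cox6b1, Cox6c, Cox7a2, Cox7b, Cox7c and Cox8a, encode the structural subunits in their ubiquitous forms. They were taken by gene symbol as a family, with earlier results of these data known, so their counts are not independent evidence of a direction. All 10 were found among the 29300 genes of the deposited table, and all 10 were among the 17144 genes that passed the filter on low counts.

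The hippocampus of male C57BL/6 mice aged 7 to 8 months was taken on day 1 after the procedure. The 2 control mice (labelled sham) received isoflurane anesthesia and tramadol, and the 2 surgery mice received the same and an open tibial fracture fixed with an intramedullary nail. Poly(A) RNA of each mouse was sequenced, and the total count per library ran from 15763432 to 18573386. All 8 neuronal and all 6 hippocampal marker genes were detected in every library. Choroid plexus transcripts differed between libraries, with a summed level of 5 markers of 121 CPM (counts scaled to a common library size) and 5313 CPM in the control mice and 1997 CPM and 3395 CPM in the surgery mice, so the first control library stood apart. Changes in cell number and in RNA per cell cannot be told apart in such tissue samples.

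To ask how complex IV transcripts differed after surgery, the groups were compared with edgeR's quasi-likelihood test, and p-values were adjusted by the Benjamini-Hochberg method over all 17144 genes. Of the 10 subunit transcripts, 8 were lower in the surgery mice at an adjusted p-value under 0.05, none was higher, and Cox6c and Cox7a2 did not pass. Of all genes tested, 12.8% were lower by this rule. With a fold change of at most 0.67 also required, 5 of the 10 were lower, against 2.25% of all genes tested. The median log2 fold change of the 10 was -0.55, and that of all genes tested was 0.01. Summed over the 10 genes, the level was 1726 CPM and 1852 CPM in the control mice and 1266 CPM and 1188 CPM in the surgery mice, a ratio of the means of 0.686. In all 10 genes both surgery mice lay below both control mice, by a wide margin in the 8 that passed and by less than the spread between replicates in Cox6c. Both surgery mice lay below both control mice in 32.2% of all genes tested.

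Cox4i1 and Cox5a join the core subunit made by mt-Co1 first during assembly, and they had the lowest log2 fold changes of the 10 before GC content was taken into account. Cox5a (ENSMUSG00000000088, mm10 chromosome 9, 57521274 to 57532426, plus strand) was at 78.3 CPM and 86.2 CPM in the control mice and at 46.7 CPM and 46.3 CPM in the surgery mice. Its log2 fold change was -0.82 with a standard error of 0.08 (edgeR adjusted p = 0.0043). Cox4i1 (ENSMUSG00000031818, chromosome 8, 120668222 to 120674207, plus strand), the ubiquitous form of the largest nuclear subunit, was at 209 CPM and 243 CPM in the control mice and at 142 CPM and 131 CPM in the surgery mice. Its log2 fold change was -0.73 with a standard error of 0.09 (edgeR adjusted p = 0.0049). In both genes the gap between the groups was wider than the difference between replicates. Exons of Cox4i1 overlap those of Emc8, and exons of Cox5a those of Gm26631, both on the opposite strand. The control libraries held 1180 and 1391 counts on Emc8, the surgery libraries 1112 and 984, and no library held more than 16 on Gm26631. The counting is not stated to use strand, so reads of such pairs cannot be told apart.

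Cox5b, Cox6c, Cox7b, Cox7c and Cox8a are grouped around the core subunit made by mt-Co2. Of these 5, 4 were lower at an adjusted p-value under 0.05, against 12.8% of all genes tested. Cox8a (ENSMUSG00000035885, chromosome 19, 7215158 to 7217616, minus strand), the smallest subunit, with 1 membrane helix, fell from 388 CPM and 400.1 CPM to 270.3 CPM and 256 CPM. Its log2 fold change was -0.58 (standard error 0.06, edgeR adjusted p = 0.0045). Cox7c (ENSMUSG00000017778, chromosome 13, 86044816 to 86046904, minus strand) was at 142 CPM and 166 CPM in the control mice and at 105 CPM and 99.9 CPM in the surgery mice, a log2 fold change of -0.59 (standard error 0.09, edgeR adjusted p = 0.0066). Cox5b (ENSMUSG00000061518, chromosome 1, 36691484 to 36693681, plus strand), the subunit that binds zinc on the matrix side, fell from 146 CPM and 155 CPM to 104.6 CPM and 105.3 CPM. This was a log2 fold change of -0.52 (standard error 0.06, edgeR adjusted p = 0.0049). Control and surgery mice were well separated in these 3 genes.

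Cox7b and Cox6c, which like Cox7c and Cox8a cross the membrane once, had smaller differences. Cox7b (ENSMUSG00000031231, chromosome X, 106015700 to 106022450, plus strand) was at 98.3 CPM and 109 CPM in the control mice and at 81.6 CPM and 77.1 CPM in the surgery mice. Its log2 fold change was -0.39 (standard error 0.08, edgeR adjusted p = 0.016). This call was lost without the second control mouse (-0.31, edgeR adjusted p = 0.068) and without the second surgery mouse (-0.34, edgeR adjusted p = 0.056). In such fits 1 group has a single library, which is assumed to vary like those of the other group. Its highest adjusted p over the 13 alternatives was 0.068. Cox6c (ENSMUSG00000014313, chromosome 15, 35925886 to 35938246, minus strand) stood at 110.6 CPM and 110.7 CPM in the control mice and at 110.1 CPM and 105.9 CPM in the surgery mice. Its log2 fold change was -0.04 with a standard error of 0.06 (edgeR adjusted p = 0.72), and scaling by library totals alone put it at 0.01. Cox6c exons overlap Vps13b on the opposite strand, a gene with 1408 and 1639 counts in the control libraries against 1317 and 1406 in the surgery libraries.

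Cox6a1, Cox6b1 and Cox7a2 join the complex with the core subunit made by mt-Co3 or after it. Of the 3, 2 were lower at an adjusted p-value under 0.05, against 12.8% of all genes tested. Cox6a1 (ENSMUSG00000041697, chromosome 5, 115345642 to 115348981, minus strand), the form of subunit 6a found outside heart and skeletal muscle, was at 382 CPM and 406 CPM in the control mice and at 264 CPM and 238 CPM in the surgery mice. Its log2 fold change was -0.65 (standard error 0.07, edgeR adjusted p = 0.0045). Cox6b1 (ENSMUSG00000036751, chromosome 7, 30616861 to 30626151, minus strand), which faces the intermembrane space where cytochrome c docks, fell from 109.8 CPM and 117 CPM to 84.0 CPM and 77.6 CPM. This was a log2 fold change of -0.49 (standard error 0.07, edgeR adjusted p = 0.0069). Cox7a2 (ENSMUSG00000032330, chromosome 9, 79755361 to 79759878, minus strand), whose protein family takes part in joining complex IV to other complexes, did not pass. It was at 61.2 CPM and 59.1 CPM in the control mice and at 57.9 CPM and 50.3 CPM in the surgery mice, a log2 difference of -0.15 (standard error 0.09, edgeR adjusted p = 0.26). The difference between the 2 surgery mice in Cox7a2 was larger than the gap between the groups.

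**Figure D1:**
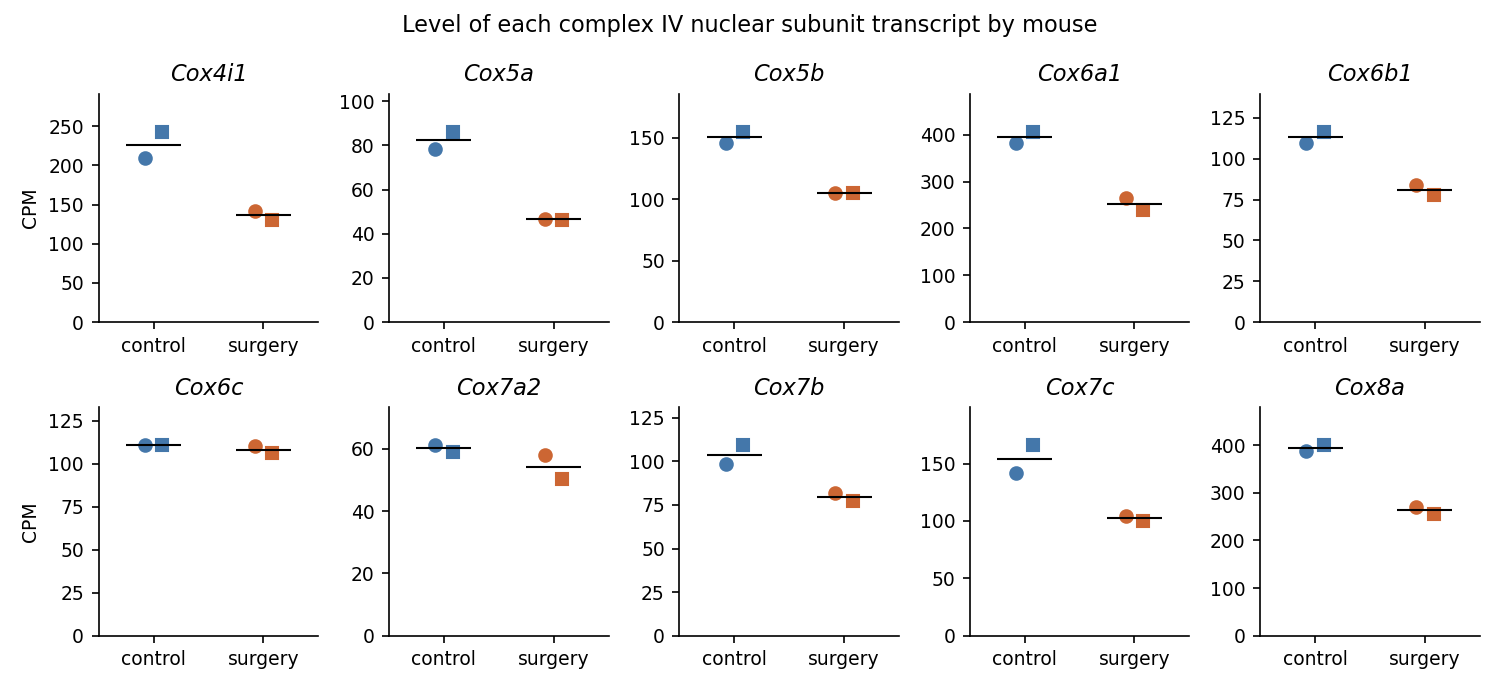
Level of each of the 10 complex IV nuclear subunit transcripts in CPM (vertical axes from 0, 1 scale per gene) in the 2 control mice (blue) and the 2 surgery mice (orange), with circles for mouse 1 and squares for mouse 2 of each group and lines for the group means. The groups are widely apart in Cox5a (78.3 and 86.2 against 46.7 and 46.3 CPM) and nearly meet in Cox6c (110.6 and 110.7 against 110.1 and 105.9 CPM).

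The number of these transcripts that also met the fold change of at most 0.67 rested on single libraries, since Cox8a, Cox7c and Cox6a1 lay near that limit with fold changes of 0.668, 0.663 and 0.637. It was 5 with all libraries, 3 without the second control mouse (1.42% of all genes in that fit) and 2 without the second surgery mouse (1.51%). Scaling by library totals alone also left 3 (1.31%). The number lower at an adjusted p-value under 0.05 was 7 without the second control mouse (6.75% of all genes), 7 without the second surgery mouse (7.54%) and 8 with library totals (10.6%). Without the first control mouse, whose choroid plexus level was the lowest, 8 of the 10 were lower (9.62% of all genes) and 5 of them met the fold limit (3.12%), with the median of the 10 at -0.59 on the log2 scale.

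The fold change followed the GC content of transcripts across all genes in this comparison. With genes split into 8 equal classes, the class of lowest GC (up to 42.4%) had a median log2 fold change of 0.60 and that of highest GC (from 57.6%) one of -0.35. The subunit transcripts span this range. Cox7b, with 42.0% GC, lay in the lowest class, and Cox4i1 (58.0%), Cox8a (58.5%) and Cox6a1 (58.8%) lay in the highest. Across the 10 genes, Spearman's rho between GC content and log2 fold change was -0.32, and it was 0.56 once the offsets described next were entered, both as descriptions over genes that share the same 4 libraries.

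When the trends of each library with GC content and transcript length were entered as offsets, all 10 log2 fold changes stayed negative, with a median of -0.49, and 6 of the 10 passed the test as lower. Of all genes tested, 0.852% were lower in that fit. The order of the members changed. Cox7b moved from -0.39 to -0.85 (edgeR adjusted p = 0.030) and Cox7c from -0.59 to -0.82 (edgeR adjusted p = 0.032). Cox5a, with 49.0% GC, was at -0.92 (edgeR adjusted p = 0.026), again the largest fall of the 10. The 3 transcripts rich in GC moved toward 0, with Cox4i1 at -0.49 (edgeR adjusted p = 0.049), Cox6a1 at -0.40 (edgeR adjusted p = 0.051) and Cox8a at -0.34 (edgeR adjusted p = 0.053), so that Cox6a1 and Cox8a no longer passed. Cox6c was at -0.22 (edgeR adjusted p = 0.13) and Cox7a2 at -0.11 (edgeR adjusted p = 0.53).

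**Figure D2:**
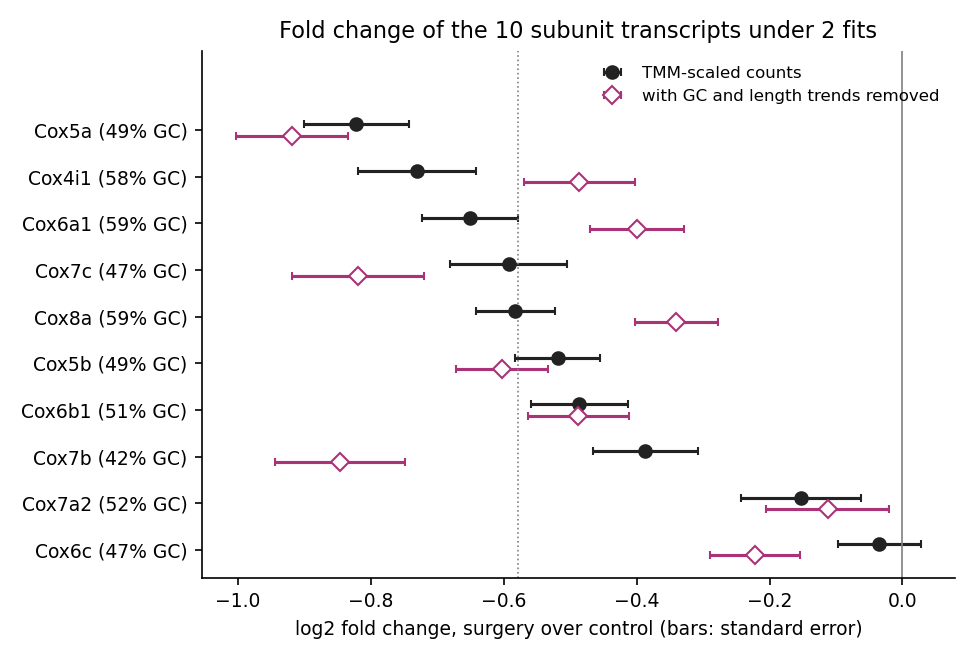
Log2 fold change of surgery over control mice (horizontal axis) for each of the 10 transcripts, with the GC content of its main transcript in brackets, from TMM-scaled counts (filled circles) and with GC and length trends removed (open diamonds). Bars are standard errors, the solid line is 0 and the dotted line is a fold change of 0.67; all values lie below 0, and Cox7b (-0.39 and -0.85) moves the most between the fits.

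The balance among the subunits, which does not depend on a scaling factor per library but does depend on GC content, was also compared. Cox6c made up 6.41% and 5.98% of the counts on the 10 genes in control libraries, against 8.70% and 8.91% in surgery libraries. Relative to the geometric mean of the 10, it was 0.46 higher on the log2 scale in the surgery mice, with SDs of 0.07 and 0.02 in the 2 groups (n = 2 each). Cox7a2 held 3.55% and 3.19% of these counts in the control mice against 4.57% and 4.23% after surgery, 0.34 higher on the same relative scale. Cox5a went from 4.53% and 4.65% to 3.69% and 3.90%, 0.33 lower relative to the geometric mean, and Cox4i1 was 0.23 lower. For Cox5b and Cox6b1 the groups overlapped on this scale. With GC and length offsets, the log2 fold change relative to the mean of the 10 was 0.30 for Cox6c, 0.41 for Cox7a2 and -0.39 for Cox5a, the same directions as without them. The direction turned for Cox4i1 (0.04), Cox6a1 (0.12), Cox8a (0.18) and Cox7b (-0.32). These relative changes were not tested.

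**Figure D3:**
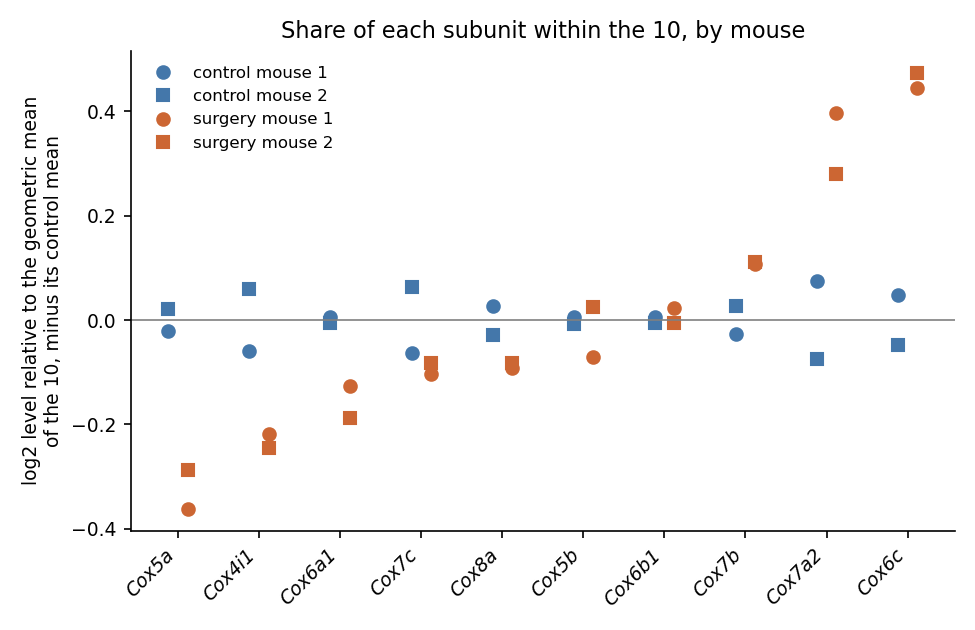
Log2 level of each subunit transcript relative to the geometric mean of the 10 in the same library, minus its mean in the control mice (vertical axis), for each mouse (blue for control, orange for surgery, circles for mouse 1, squares for mouse 2), without GC or length offsets. Cox5a and Cox4i1 lie below 0 in both surgery mice, Cox6c and Cox7a2 lie above 0 by 0.46 and 0.34 on average, and the groups overlap for Cox5b and Cox6b1.

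Per kilobase of the main transcript, Cox8a and Cox6a1 were the most abundant of the 10, although the subunits are present in equal numbers in the complex. Cox8a had 706 and 728 CPM per kilobase in the control mice and Cox6a1 had 669 and 712, so these 2 overlapped. Cox4i1 (273 and 318) and Cox7c (263 and 307) came next and also overlapped, followed by Cox6b1 (178 and 189) and Cox5b (169 and 179), which overlapped by a narrow margin. Cox6c had 149.9 and 150.04 CPM per kilobase, Cox5a 121 and 134, Cox7b 98.2 and 109, and Cox7a2 92.8 and 89.7, and each of these was apart from its neighbours. In the surgery mice Cox8a and Cox6a1 were still first, at 479 ± 18.1 and 440.1 ± 31.9 CPM per kilobase (SD, n = 2), while Cox5a went from place 8 to place 10 and Cox6c from place 7 to place 5. The order depends on the transcript length used, since Cox6c was at place 10 in the control mice per kilobase of all its annotated exons.

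Some reads of these genes could have come from copies or neighbours. Of the 75-base windows of Cox7c transcripts, 19.6% also occur in the pseudogenes Gm10012 and Gm12338, which had 0 to 3 and 74 to 93 counts per library. For Cox5b, 7.42% of the windows occur in Gm11273, with 197 and 221 counts in the control libraries against 122 and 119 in the surgery libraries. For Cox6a1, 4.58% occur in a pseudogene that was not analysed here. The shared windows of Cox4i1 (4.61%) and Cox5a (5.91%) lie in the overlapping genes Emc8 and Gm26631. Those of Cox6c lie in Vps13b (4.76%) and in the pseudogene Cox6c2 (1.91%), which had at most 4 counts in a library. No shared window was found for Cox6b1, Cox7a2, Cox7b and Cox8a. Counts on the copies were small beside those on the subunit genes themselves, which ran from 745 to 7430. Those on the neighbours Emc8 (984 to 1391 per library) and Vps13b (1317 to 1639) were larger. How shared reads were counted is not given, so counts on a copy do not show how many reads were shared.

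Transcription of these genes is known to be coordinated by nuclear respiratory factors, NRF-1 and the ETS-family factor GABP (NRF-2), and promoter windows from RefSeq (GRCm38.p6) were matched for 8 of the 10, all but Cox4i1 and Cox6c. In the 250 bases before the start, both strands were searched for the palindromic NRF-1 core motif, the shorter NRF-1 motif TGCGCA, the GABP motif CCGGAAG, the YY1 motif AAGATGGC and the Sp1 GC box GGGCGG. The element bound by ZNF143 and THAP11 was added after the sequences had been read. The core and the shorter motif share no position in these promoters. Bases before the RefSeq start and any earlier GENCODE start are printed for Cox5a, the transcript with the largest fall, for Cox7a2, which did not pass, and for the 3 promoters that hold the rarest motifs. Capitals mark matches to the NRF-1 motifs and to the ZNF143 element.
Cox5a (chr9:57521082-57521231, plus strand): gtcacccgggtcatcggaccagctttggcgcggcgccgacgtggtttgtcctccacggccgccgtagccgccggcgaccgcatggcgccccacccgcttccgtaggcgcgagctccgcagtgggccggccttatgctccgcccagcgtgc
Cox7a2 (chr9:79759879-79760028, minus strand): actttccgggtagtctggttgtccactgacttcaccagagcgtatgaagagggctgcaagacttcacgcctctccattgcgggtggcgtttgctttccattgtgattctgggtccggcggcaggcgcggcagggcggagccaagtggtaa
Cox6a1 (chr5:115348982-115349131, minus strand): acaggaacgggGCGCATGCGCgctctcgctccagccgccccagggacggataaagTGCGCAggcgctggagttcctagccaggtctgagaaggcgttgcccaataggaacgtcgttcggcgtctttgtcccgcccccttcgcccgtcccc
Cox7b (chrX:106015550-106015699, plus strand): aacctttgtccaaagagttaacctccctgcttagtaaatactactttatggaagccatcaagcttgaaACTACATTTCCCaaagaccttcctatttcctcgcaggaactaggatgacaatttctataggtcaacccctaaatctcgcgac
Cox7c (chr13:86046905-86047045, minus strand): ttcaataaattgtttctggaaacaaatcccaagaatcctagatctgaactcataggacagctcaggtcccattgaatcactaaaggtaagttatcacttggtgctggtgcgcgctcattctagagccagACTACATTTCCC

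The promoters differed in composition and in motif content. Their GC content ran from 43.6% in Cox7b and 46.4% in Cox7c to 63.2% in Cox5a. The NRF-1 core occurred in Cox6a1 alone of the 8 (at bases -162 to -153 from the RefSeq start), against 0.782% of the 32851 mouse promoter windows searched in the same way. The shorter NRF-1 motif occurred in Cox5b and Cox6a1, against 6.43% of windows, and the GABP motif in Cox6a1 and Cox6b1, against 6.91%. Both GABP matches, at bases -16 to -10 and -28 to -22, lie after the GENCODE start and so inside the annotated transcript. Of the 250 bases searched in Cox7c, 109 also lie inside its transcript. The Sp1 GC box occurred in Cox5a, Cox6a1 and Cox7a2, against 32.7% of windows, and the YY1 motif in none of the 8, against 1.56%. Cox7b and Cox7c both held ACTACATTTCCC, a match to the ZNF143 element, which 0.871% of windows held. No motif was common to the promoters of the falling transcripts, and Cox7a2 held the Sp1 GC box alone. A match describes letters in a window and not a site in use.

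Of 9 genes for regulators of this program, 3 were higher in the surgery mice, 1 was lower and 5 did not pass, where 13.1% of all genes tested were higher and 12.8% lower. Their median log2 fold change was 0.15. Gabpa, which encodes the DNA-binding subunit of GABP, rose by 0.93 and Ppargc1a, the coactivator PGC-1α, by 0.52. Esrra, the nuclear receptor ERRα, had a log2 fold change of -0.57, and Nrf1 one of -0.33 (edgeR adjusted p = 0.055). With GC and length offsets none of the 9 passed edgeR's test after adjustment, and 1 did at an unadjusted p-value under 0.05. The share of all genes at that unadjusted p-value was not computed. DESeq2 without offsets called 3, where it called 3787 of 29300 genes. The median of the 9 was 0.14 with the offsets.

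The 3 core subunits encoded by the mitochondrial genome were higher in the surgery mice before GC content was taken into account, as were 8 of the 9 other mitochondrial genes tested, whose median log2 fold change was 1.03. Mt-Co1, which carries the site where oxygen is reduced, was at 13155 CPM and 11649 CPM in the control mice and at 19561 CPM and 19702 CPM in the surgery mice, a log2 fold change of 0.66 (standard error 0.09, edgeR adjusted p = 0.0054). Mt-Co2, which receives electrons from cytochrome c, rose by 1.15 and mt-Co3 by 1.18 on the log2 scale, from levels of 35.2 CPM and 29.0 CPM and of 21.8 CPM and 16.3 CPM in the control mice. Of all genes tested, 13.1% were higher at an adjusted p-value under 0.05. Of the windows of mt-Co2 and mt-Co3, 99.5% and 99.9% also occur in transcripts of nuclear copies, against 39.8% for mt-Co1, and how reads shared with these copies were counted is not given in the sources used here, so the levels of mt-Co2 and mt-Co3 may not be their expression levels. The copy of mt-Co2 with the most counts, Gm28661, had 295 and 312 in control libraries against 650 and 674 in surgery libraries, and the copy of mt-Co3, Gm28437, had 318 and 312 against 446 and 472. Counts on the 3 mitochondrial genes, nearly all on mt-Co1, were 7.66 and 6.31 times those on the 10 nuclear genes in control libraries, against 15.6 and 16.7 times in surgery libraries. The mitochondrial transcripts are poor in GC, from 38.6% to 39.9%. With GC and length offsets mt-Co1 was at 0.07 (edgeR adjusted p = 0.72), mt-Co2 at 0.43 (edgeR adjusted p = 0.073) and mt-Co3 at 0.49 (edgeR adjusted p = 0.21), so none of the 3 passed, although 2 had an unadjusted p-value under 0.05, and DESeq2 without offsets called all 3. The median of the 9 other mitochondrial genes was 0.22 with these offsets, and 1 of them was higher, against 0.595% of all genes.

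The tissue-restricted forms of the subunits were scarce in the hippocampus. Cox6a2, the form of heart and skeletal muscle, had at most 5.74 CPM in any library, Cox6b2 at most 6.02 CPM, Cox8b at most 2.84 CPM and Cox4i2 at most 1.42 CPM, and none of these 4 passed the test. Cox7a1 and Cox7b2 were too low to be tested. Ndufa4, a further subunit of complex IV, was at 153 CPM and 156 CPM in the control mice and at 134 CPM and 128 CPM in the surgery mice, and its log2 fold change was -0.24 (standard error 0.06, edgeR adjusted p = 0.033). Without 1 library its adjusted p by edgeR ranged from 0.046 to 0.15, and with GC and length offsets its log2 fold change was -0.59. Cox7a2l, which takes part in linking complexes III and IV, was at 118 CPM and 111 CPM against 102 CPM and 101 CPM, with a log2 fold change of -0.17 (edgeR adjusted p = 0.099).

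Of 22 tested genes for assembly factors of complex IV, 3 were lower, 1 was higher and 18 did not pass, a share lower near the 12.8% of all genes tested and a share higher below their 13.1%. Their median log2 fold change was -0.17, against -0.55 for the 10 structural subunits. The 3 lower ones were Cox14 (-0.45) and Coa3 (-0.45), which act on newly made mt-Co1 protein, and Cox10 (-0.40), which makes the heme A precursor. Cox10 did not pass when any 1 of the 4 mice was left out (edgeR adjusted p from 0.076 to 0.10), with log2 fold changes from -0.43 to -0.38. Cmc1 did not pass in 3 of these 4 fits (edgeR adjusted p up to 0.14), at 0.57 to 0.69. Coa3 did not pass without the second surgery mouse (-0.35, edgeR adjusted p = 0.059) or without the filter (edgeR adjusted p = 0.051). Without the filter on low counts 1 assembly factor was called, where 2665 of 29300 genes were. With the replicate number as a block 6 were called, where 5279 of 17144 genes were. The block with GC and length offsets called 4, where it called 2185 of all genes. Cmc1, which binds mt-Co1 protein early in assembly, was higher (0.67). The copper chaperone gene Cox17 had a log2 fold change of 0.64 without passing (edgeR adjusted p = 0.082). Cox11 had the lowest log2 fold change of the list, -0.61, also without passing (edgeR adjusted p = 0.068). It passed with the replicate number as a block, without and with the offsets (edgeR adjusted p = 0.037 and 0.047). With GC and length offsets none of the 22 passed edgeR's test after adjustment, against 0.852% of all genes lower and 0.595% higher. At an unadjusted p-value under 0.05, 7 did, all of them lower, and the share of all genes by that rule was not computed. DESeq2 without offsets called 2, where it called 3787 of 29300 genes. The offsets put the median of the 22 at -0.23, with Cmc1 at 0.36 and Cox10 at -0.23. Cycs, for cytochrome c itself, had a log2 fold change of 0.26 (edgeR adjusted p = 0.13), which turned to -0.27 with GC and length offsets.

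Nuclear subunits of the other proton-pumping complexes and of ATP synthase had smaller medians. Median log2 fold changes were -0.40 over 9 genes of complex III, -0.40 over 15 of ATP synthase and -0.37 over 36 of complex I, and the shares lower at an adjusted p-value under 0.05 were 5 of 9, 10 of 15 and 21 of 36, against 12.8% of all genes. With GC and length offsets the medians were -0.28, -0.34 and -0.31, and 2, 2 and 5 genes were lower, against 0.852% of all genes. The difference between complex IV and these lists was not tested. Before GC content was taken into account, each list also held genes that did not fall. Uqcrb was at 0.23 in complex III, Atp5f1 at 0.24 in ATP synthase and Ndufab1 at 0.62 in complex I, the highest value of each list. The lowest were Uqcr11 (-0.79), Atp5k (-0.72) and Ndufs6 (-0.75). With GC and length offsets, 0 genes of these lists were higher at an adjusted p-value under 0.05, against 0.595% of all genes.

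**Figure D4:**
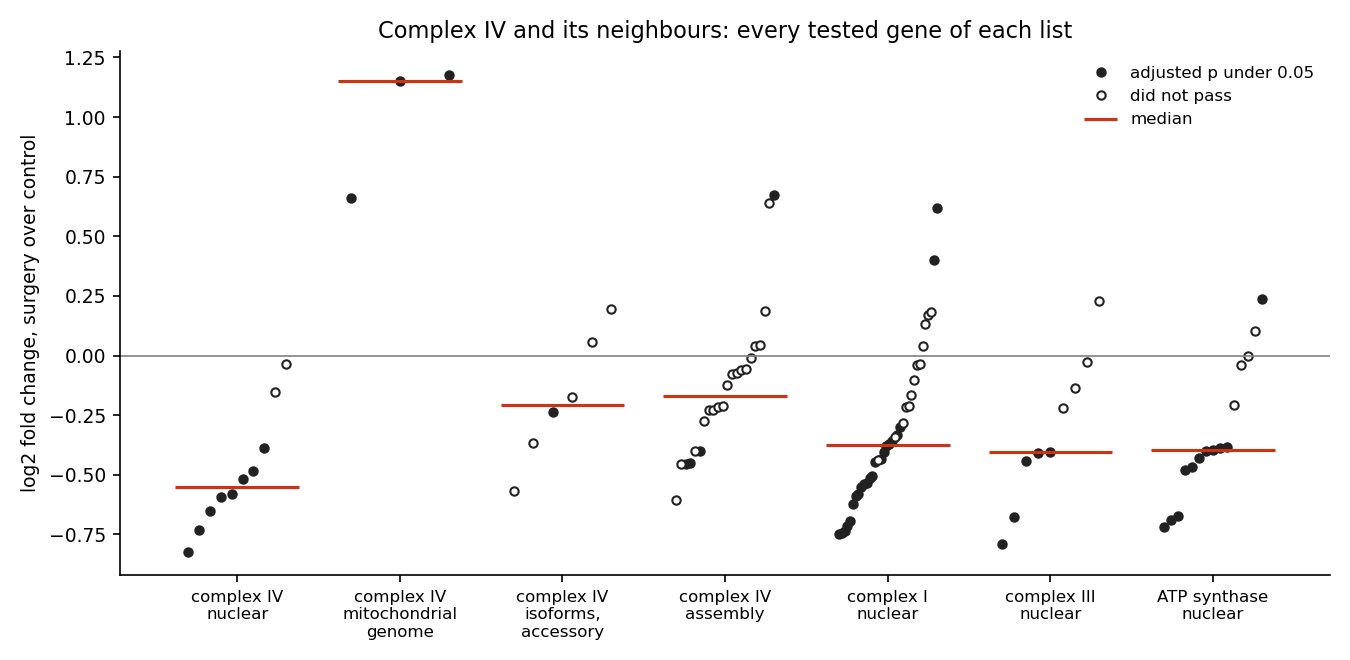
Log2 fold change of surgery over control mice (vertical axis) for every tested gene of complex IV, its isoforms, its assembly factors and the nuclear subunits of complex I, complex III and ATP synthase; filled points passed an adjusted p-value of 0.05, open points did not, and red lines are medians. The 10 nuclear complex IV genes lie between -0.82 and -0.04, and the 3 mitochondrial ones between 0.66 and 1.18.

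Outside these lists, the 5 genes with a mean of at least 10 CPM whose levels over the 4 libraries lay nearest to the mean profile of the 10 subunits were Timm10, Oaz1, Gstp1, Iqsec1 and Psmd4. The distance was Euclidean, on log2 CPM centred on the control mean, and ran from 0.02 to 0.03. At that level 10364 genes were tested, a number that includes the listed genes left out of the search. Timm10 encodes a chaperone of mitochondrial protein import, Oaz1 an inhibitor of polyamine synthesis, Gstp1 a glutathione transferase, Iqsec1 an exchange factor for ARF GTPases and Psmd4 a proteasome subunit. Their log2 fold changes lay between -0.50 and -0.48.

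Markers of cell types were read beside these results, where 12.8% of all genes were lower and 13.1% higher. Of 8 neuronal markers, Tubb3, Slc17a7 and Camk2a were lower, Gad2 was higher and 4 did not pass. The summed level of the 8 was 11303 CPM and 11045 CPM in the control mice and 9993 CPM and 9669 CPM in the surgery mice. Of 6 hippocampal markers, Wfs1 was lower (-0.70) and Neurod6 (0.53) and Zbtb20 (0.44) were higher. Of 4 neutrophil markers tested, Ltf was lower (-1.63), at no more than 3.45 CPM in any library. Of 5 astrocyte markers 2 were higher and 1 was lower, and of 5 microglial and 5 endothelial markers 1 each was higher. Of 5 oligodendrocyte and 5 choroid plexus markers 0 passed by edgeR, 0 had an unadjusted p-value under 0.05 and DESeq2 called 0. The summed level of the 5 oligodendrocyte markers was 5869 CPM and 5081 CPM in the control mice. It was 5784 CPM and 3733 CPM in the surgery mice, so the second surgery library was lowest. Of the 45 markers tested over all lists, edgeR called 13 without and 0 with GC and length offsets. With the offsets 11 had an unadjusted p-value under 0.05, 1 oligodendrocyte marker among them. The share of all genes at that unadjusted p-value was not computed. DESeq2 without offsets called 14 of 48 markers and 3787 of 29300 genes. With the offsets in edgeR, the median went from 0.25 to 0.07 for the hippocampal markers and from -0.14 to 0.15 for the microglial ones. The part of these differences in the subunit levels was not tested.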

How the data were processed

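Hippocampal RNA of 2 control and 2 surgery mice was sequenced. Paired-end reads were filtered and aligned with HISAT to mm10 by the authors, who deposited whole-number counts of reads per gene and mouse, without normalization. The submitters' processing notes name HISAT2 2.1.0, TopHat2, Bowtie2 2.2.3 and HTSeq 0.6.0, and the use of strand is not given in the sources used here. The table also holds the authors' fold changes and p-values, which were not used. From the counts, genes were kept by filterByExpr at a minimum count of 10, scaled by TMM (factors from 0.982 to 1.02) and tested in R 4.3.3 with edgeR 4.0.16 (glmQLFit, glmQLFTest), with condition as the only term. CPM are counts divided by the TMM-scaled library size. Standard errors were derived from the F statistics. Replicates differed by more than sampling noise (chi-square per degree of freedom 13.4 and 8.45). The study names 2 mice a group. The edgeR p-values set the group difference against a spread between samples that is moderated over all genes tested. Lengths, GC contents, overlaps and shared windows came from GENCODE M21, in which 29238 of the 29300 identifiers occur. GC and length offsets were smooth trends per library (mgcv 1.9.3, basis size 8) fitted on log2 CPM (prior count 2). The alternatives were RLE scaling, library totals, no filter, a mean of at least 1 CPM, DESeq2 1.42.0, limma-voom (limma 3.58.1), the replicate number as a block, the offsets, both together, and leaving out each mouse. The procedures were tested on simulated counts. Named genes were the members, genes of the fixed lists, genes sharing sequence or exons with a member, and the 5 most alike. Members and lists were chosen with earlier results of these data known.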

Additional observations from a re-analysis of the deposited data

How the results depend on the processing

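The 8 subunits that passed kept their direction under all 13 alternatives, and of 130 values for single subunits 124 kept their direction and their side of the threshold. With library totals only, the log2 fold change of Cox6c was 0.012, and 3 of the 10 subunits were lower with a fold change of at most 0.67. In all, 4450 genes were called, 2201 lower and 2249 higher. Without a filter these were 2665, 1350 and 1315, and the cause was not tested. With GC and length offsets they were 248, 146 and 102, and the median of the 10 subunits was -0.49. Leaving out 1 mouse gave 2408 to 4105 genes, 1207 to 2080 lower and 1201 to 2025 higher, with the spread taken from the group that kept 2. For the subunits it gave a median from -0.60 to -0.48, 7 or 8 lower, and 2 to 5 with a fold change of at most 0.67.

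Control and surgery mice share only a replicate number (correlation of same-numbered deviations 0.22 over 17144 genes, with 2 pairs). With the replicate number as a block, 5279 genes were called and 8 subunits were lower, against 15.3% of all genes, with a median of -0.55. The block with GC and length offsets called 2185 genes, 1478 lower and 707 higher, and 9 subunits, against 8.62% of all genes lower, Cox6c among them (-0.22, edgeR adjusted p = 0.046), with a median of -0.49. In that fit mt-Co2 (0.43, edgeR adjusted p = 0.010) and mt-Co3 (0.48, edgeR adjusted p = 0.020) also passed, which they did not with the offsets alone.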
